A study of Homo sapiens with 6 samples.

Results

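The genes examined were 10 genes that encode granins or neuropeptide precursors, the peptide cargo of dense core granules in neuroendocrine cells. They were chosen by name out of 60676 genes in the tables, through their Ensembl identifiers, and comprised the granins CHGA, CHGB, SCG2, SCG3, SCG5 and VGF and the precursors NPY, GAL, PENK and VIP. RNA was sequenced from SK-N-BE cells, an established human neuroblastoma line of sympathoadrenal origin. All cells were differentiated for 1.5 days in medium with 10 μM retinoic acid, and carried either scrambled siRNA (si-SCR) or siRNAs directed at the long noncoding RNA CyCoNP (si-CyCoNP). Each group had 3 libraries, and the comparison asks which of the peptide cargo transcripts changed upon CyCoNP depletion. The depletion was transient and came from pooled siRNAs in 1 cell line, and nothing in the sources says that the 3 libraries came from separate cultures, so the p-values measure the spread between these libraries, which may be technical.

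Granins are acidic proteins that condense with hormones, amines and calcium in the trans-Golgi network and so help to form dense core granules. Many granins and all neuropeptide precursors are cut at pairs of basic residues by prohormone convertases inside the granule, and the resulting peptides leave the cell when calcium triggers fusion of the granule with the plasma membrane. Sympathetic neurons, chromaffin cells and neuroblastoma cells carry such granules, and chromogranin A is a classical marker of neuroendocrine tumours.

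The libraries held 3762009 to 4799407 counted fragments, and the precision differed widely between members, from 105 to 170 counts a library for SCG5 to 7219 to 12008 for VGF. LINC02381, the gene of CyCoNP, was counted 274, 208 and 315 times in the controls and 20, 30 and 12 times after depletion, in the direction the labels give. On the first principal component of all genes tested, which separated the groups, si-SCR replicate 3 lay at -20.9 and the other si-SCR libraries at -34.8 and -35.5, against 29.2 to 32.2 in si-CyCoNP.

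Of the 10 members, 9 reached the expression filter (mean of at least 1 FPKM in either group, where FPKM gives counted fragments scaled by gene length and library total). Among these 9, 7 passed the test as lower after CyCoNP depletion (adjusted p under 0.05) and none as higher (edgeR quasi-likelihood test, p adjusted over all 13966 genes tested). Over all genes tested the share lower by this rule was 14.2% and the share higher 14.2%, and over the 4342 genes with a mean of at least 10 FPKM, where all 9 members lie, these shares were 20.0% and 20.9%. With the further demand of a log2 fold change below -1, CHGA, CHGB, GAL and VIP were called lower, against 2.98% of all genes tested (2.05% of those with at least 10 FPKM), and no member was called higher, against 2.28% (1.59%). The other 5 ranged from -0.42 to 0.09 on the log2 scale. The median log2 fold change of the 9 was -0.42, against 0.01 over all genes tested. In 7 of the 9 the 2 groups did not overlap in FPKM, each time with si-CyCoNP lower, which held for 16.1% of all genes tested and 20.4% of those with at least 10 FPKM. Groups without overlap in either direction made up 40.3% and 52.8%. The members and the gene lists below were chosen with earlier results of these data known. Shares of them set beside those of all genes are therefore descriptive and no test. These are bulk libraries, in which fewer cells of a kind and less RNA per cell cannot be told apart.

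**Figure D1:**
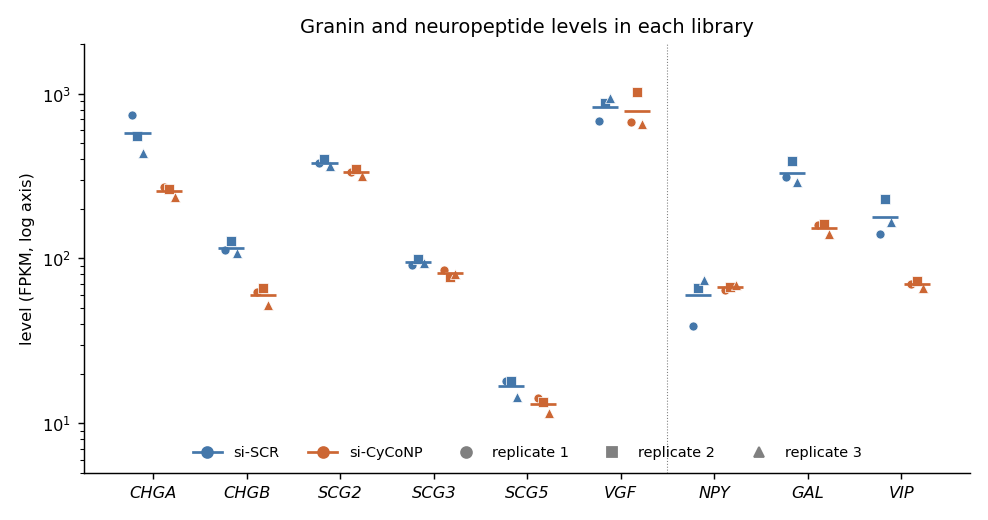
Level of each member in each library, in FPKM on a log axis, with granins left and neuropeptide precursors right of the dotted line. Symbols mark the replicates and lines the group means, and the si-CyCoNP libraries lie clear of si-SCR for CHGA, CHGB, GAL and VIP, whereas the groups overlap for VGF and NPY. PENK, at 0 in all 6 libraries, is not drawn.

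Chromogranins A and B are the founding granins, and both were lower. CHGA (ENSG00000100604, chr14:92923150-92935285, plus strand, 8 exons) encodes chromogranin A, the precursor of vasostatin, pancreastatin and catestatin. Its level was 738, 550 and 436 FPKM in the si-SCR libraries and 269.5, 263.6 and 235 FPKM in the si-CyCoNP libraries. The si-SCR libraries were thus spread widely, with replicate 1 the highest, but the lowest of them exceeded every si-CyCoNP library. This was a 2.36-fold decrease, or -1.24 on the log2 scale (standard error, SE, 0.12; edgeR, adjusted p = 9.12e-09), and without si-SCR replicate 1 it was -1.002.

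CHGB (ENSG00000089199, chr20:5911510-5925353, plus strand, 5 exons) encodes chromogranin B, which like chromogranin A is stored in granules with catecholamines. It stood at 112, 127 and 109 FPKM in si-SCR and at 62.6, 66.0 and 52.0 FPKM in si-CyCoNP. The groups lay apart, with little spread in either. Its log2 fold change of -1.01 (SE 0.09, edgeR, adjusted p = 1.95e-09) was at the fold threshold, and was -0.93 without si-SCR replicate 2, -0.93 without si-CyCoNP replicate 3 and -0.94 with library totals alone, so that it passed the test but was not called there.

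The secretogranins had smaller fold changes. SCG2 (ENSG00000171951, chr2:223596940-223602361, minus strand, 2 exons) encodes secretogranin II, the precursor of secretoneurin. It had 378, 402 and 364 FPKM in si-SCR and 333, 350 and 317 FPKM in si-CyCoNP. Every si-CyCoNP library was lower than every si-SCR library, by a small margin, and the log2 fold change was -0.26 (SE 0.08; edgeR, adjusted p = 0.00974). It did not pass without si-SCR replicate 2 (adjusted p = 0.0605), without si-CyCoNP replicate 3 (adjusted p = 0.0582) or on the log2 FPKM scales (limma, adjusted p = 0.0742 and 0.0778), all with the same sign.

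SCG3 (ENSG00000104112, chr15:51681492-51721026, plus strand, 12 exons) encodes secretogranin III, which tethers chromogranin A to the cholesterol-rich granule membrane. It had 91.7, 99.3 and 94.3 FPKM in si-SCR and 85.0, 77.7 and 80.9 FPKM in si-CyCoNP, without overlap. Its log2 fold change was -0.29 (SE 0.08; edgeR, adjusted p = 0.00599), and it passed under all 15 alternatives, with adjusted p-values from 0.000433 to 0.0437.

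SCG5 (ENSG00000166922, chr15:32641676-32697098, plus strand, 6 exons) encodes the 7B2 protein, a chaperone that prohormone convertase 2 needs for its maturation. It was the granin with the lowest level, at 18.03, 18.04 and 14.5 FPKM in si-SCR and 14.2, 13.5 and 11.5 FPKM in si-CyCoNP. The lowest si-SCR library, replicate 3, lay just above the highest si-CyCoNP library, replicate 1. The log2 fold change was -0.42 (SE 0.14; edgeR, adjusted p = 0.0232), and SCG5 failed the test under 8 of the 15 alternatives, among them DESeq2 (adjusted p = 0.0612) and the fits without si-SCR replicate 1 (0.0958), si-SCR replicate 2 (0.0932), si-CyCoNP replicate 2 (0.0517) or si-CyCoNP replicate 3 (0.107).

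VGF (ENSG00000128564, chr7:101162509-101165569, minus strand, 2 exons) encodes a granin-like protein that nerve growth factor induces and that is cut into peptides such as TLQP-21. It was the most abundant member, at 680, 880 and 937 FPKM in si-SCR and 677, 1025 and 649.7 FPKM in si-CyCoNP. The groups overlapped, with si-CyCoNP replicate 2 above every other library. The log2 fold change was -0.15 (95% interval -0.40 to 0.09; edgeR, adjusted p = 0.37), which leaves room for a decrease by 0.40 on the log2 scale but not for one of the size seen in CHGA. Without si-CyCoNP replicate 2 it was -0.39 and passed the test (edgeR, adjusted p = 0.0053).

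Among the neuropeptide precursors, VIP and GAL were lower and NPY was not distinguishable from no change. VIP (ENSG00000146469, chr6:152750797-152759765, plus strand, 7 exons) encodes vasoactive intestinal peptide and the related peptide PHM, cotransmitters of cholinergic sympathetic and parasympathetic neurons. Its level was 140.1, 230 and 167 FPKM in si-SCR and 70.2, 72.9 and 65.7 FPKM in si-CyCoNP. All si-CyCoNP libraries were close together and far below the lowest si-SCR library. The log2 fold change of -1.43 (SE 0.12, edgeR, adjusted p = 7.26e-10), a 2.69-fold decrease, was the largest among the members, and ranged from -1.56 without si-SCR replicate 1 to -1.20 without si-SCR replicate 2.

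GAL (ENSG00000069482, chr11:68683779-68691175, plus strand, 6 exons) encodes galanin, a peptide that sympathetic neurons and neuroblastoma cells release. It had 312, 391 and 290.1 FPKM in si-SCR and 159, 161.5 and 140.1 FPKM in si-CyCoNP. The groups did not overlap. GAL thus decreased 2.26-fold, which is -1.17 on the log2 scale (SE 0.10; edgeR, adjusted p = 6.43e-10), and it was called lower under all 15 alternatives.

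NPY (ENSG00000122585, chr7:24284188-24291862, plus strand, 4 exons) encodes neuropeptide Y, which sympathetic neurons release together with noradrenaline. It had 39.1, 66.4 and 74.0 FPKM in si-SCR and 63.9, 67.2 and 69.1 FPKM in si-CyCoNP. The si-CyCoNP libraries all fell within the range of si-SCR, whose replicate 1 was the lowest. The log2 fold change was 0.09 (95% interval -0.21 to 0.39; edgeR, adjusted p = 0.688) and turned to -0.13 without si-SCR replicate 1.

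PENK (ENSG00000181195, on chromosome 8), the proenkephalin gene and source of the opioid enkephalins, had 0 counts in all 6 libraries. A count of 0 allows up to between 0.625 and 0.797 CPM (counts scaled to the library total), depending on the library, for counting error only. No comparison was therefore possible for PENK.

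**Figure D2:**
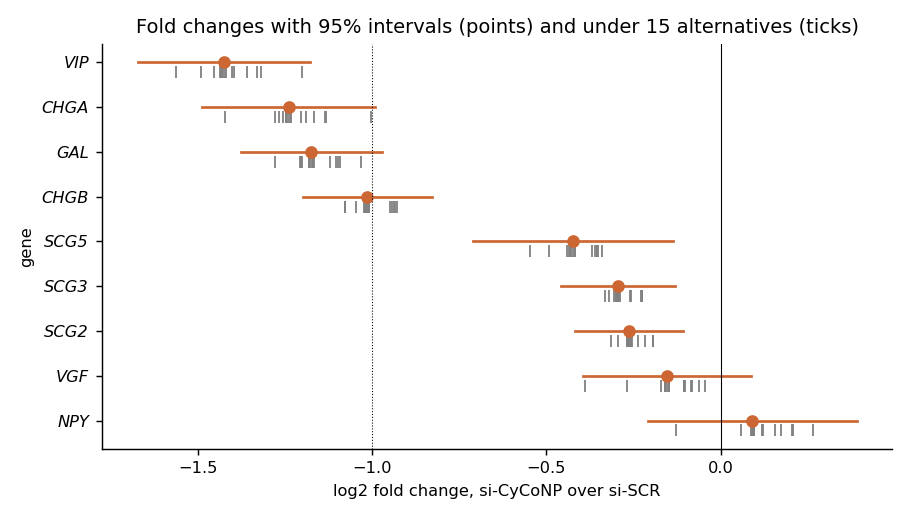
Log2 fold change of si-CyCoNP over si-SCR for the 9 members tested, with the 95% interval of the edgeR fit (points and lines) and the estimates under 15 alternatives (ticks). The dotted line marks the threshold of -1, and VIP, CHGA, GAL and CHGB lie at or beyond it while the intervals of VGF and NPY include 0.

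The order of the members by level in FPKM, which is per length, differed between the groups. In si-SCR the order was VGF (832 ± 135 FPKM, SD, n = 3), CHGA (575 ± 153), SCG2 (381 ± 19.1), GAL (331 ± 53.1), VIP (179 ± 46.0), CHGB (116 ± 10.1), SCG3 (95.1 ± 3.83), NPY (59.8 ± 18.3) and SCG5 (16.8 ± 2.06). The ranges of the libraries overlapped between VGF and CHGA and between SCG2 and GAL, and between no other neighbours. In si-CyCoNP, VGF stayed first (784 ± 210 FPKM, SD, n = 3), SCG2 came before CHGA (333 ± 16.8 against 256 ± 18.5), SCG3 (81.2 ± 3.64) came before VIP (69.6 ± 3.62), and VIP, NPY (66.8 ± 2.63) and CHGB (60.2 ± 7.32) had ranges that overlapped from one to the next. Among all genes tested VGF ranked 21 and CHGA 40 by mean FPKM in si-SCR.

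Ratios between members within a library do not depend on how libraries are scaled. The ratio of CHGA to SCG2 in FPKM was 1.95, 1.37 and 1.20 in the controls but 0.810, 0.753 and 0.742 after depletion, so that CHGA exceeded SCG2 in each si-SCR library and in no si-CyCoNP library. The ratio of CHGB to SCG3 crossed 1 in the same way, from 1.22, 1.28 and 1.15 to 0.737, 0.850 and 0.643. VIP stood at 3.58, 3.46 and 2.26 times the level of NPY in si-SCR and at 1.10, 1.08 and 0.951 times in si-CyCoNP, and GAL stood at 7.97, 5.89 and 3.92 times the level of NPY against 2.49, 2.4 and 2.03 times. By contrast, the ratio of CHGA to CHGB overlapped between the groups (4.97 ± 1.40 against 4.27 ± 0.264, SD, n = 3), and so did that of GAL to VIP (1.89 ± 0.292 against 2.21 ± 0.0699). These ratios were formed after the levels had been seen and are given as values without a test.

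**Figure D3:**
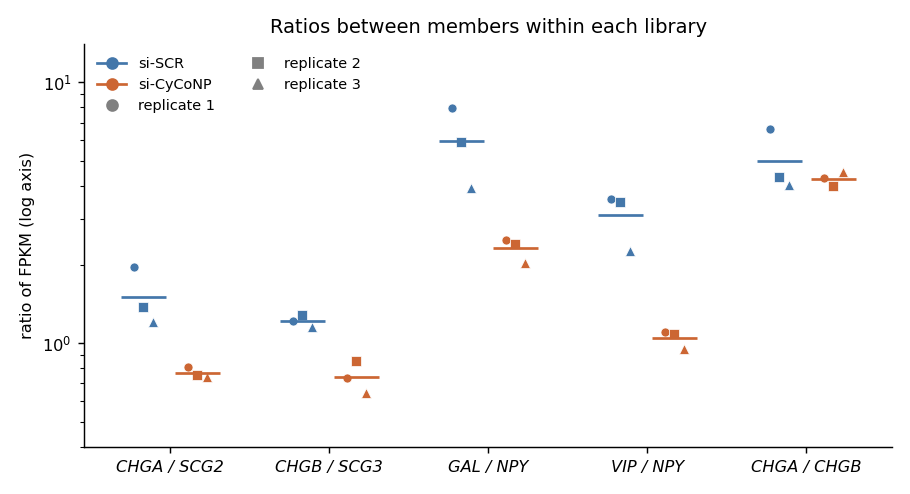
Ratio of the FPKM of 2 members within each library, on a log axis, with replicates as symbols and group means as lines. The first 4 ratios separate the groups, whereas CHGA over CHGB does not.

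Counted fragments of the 6 granins together made up 0.586%, 0.598% and 0.558% of the si-SCR libraries and 0.407%, 0.502% and 0.378% of the si-CyCoNP libraries. The highest value in si-CyCoNP was that of replicate 2, the library with the highest VGF. The 4 neuropeptide precursors took 0.0767% ± 0.0144 of the counts in si-SCR and 0.0370% ± 0.00194 in si-CyCoNP (SD, n = 3).

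Sequences around the transcription start were read to see which members carry a cyclic AMP response element, the DNA word TGACGTCA that binds factors of the CREB family and is a textbook feature of granin and neuropeptide genes. RefSeq promoters on GRCh38.p14 were found for 6 members (CHGA, SCG3, SCG5, VGF, NPY and VIP), and the 250 bases before the start were searched on both strands. The full word was present in CHGA, 54 bases before the start, and in VGF, 79 bases before it, compared with 1.65% of 35097 promoters and 2.79% of 13129 promoters of genes tested. VIP held no full word but the shorter word TGACG at 79 bases and its reverse complement at 89 bases before the start, and SCG5 held TGACG at 17 bases. This shorter word, which is part of the full one, occurred in 21.2% of all promoters and 28.6% of those of genes tested, and neither word was found in SCG3 or NPY. The 110 bases before the start are printed for the members with the full word or more than 1 short word, with these words in capitals.

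CHGA (GRCh38.p14, chr14:92923040-92923149, plus strand): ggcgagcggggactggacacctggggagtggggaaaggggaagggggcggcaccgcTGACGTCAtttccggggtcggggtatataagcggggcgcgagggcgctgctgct
VGF (GRCh38.p14, chr7:101165570-101165679, minus strand): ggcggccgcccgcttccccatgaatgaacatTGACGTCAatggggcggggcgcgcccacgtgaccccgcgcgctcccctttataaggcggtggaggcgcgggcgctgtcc
VIP (GRCh38.p14, chr6:152750687-152750796, plus strand): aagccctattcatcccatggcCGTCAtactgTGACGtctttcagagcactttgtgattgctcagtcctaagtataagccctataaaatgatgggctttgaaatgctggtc

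CHGA and VIP were called lower and VGF, which holds the same full word as CHGA, did not pass the test. No promoter was found for CHGB and GAL, which were also called lower, or for SCG2. The part of these words in the changes of the members was not tested.

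The study addressed CyCoNP as a partner of the microRNA miR-4492, from pull-down, reporter and blocking experiments as well as predicted sites. It also proposes a further route, through NCAM1, for genes that are not predicted targets. The members were searched for matches to the seed of miR-4492 (bases 2 to 8, in capitals), which pairs with the word CCAGCCC in a target.

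hsa-miR-4492 (GRCh38.p14, chr11:118910765-118910781, plus strand): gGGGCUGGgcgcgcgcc

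In the longest annotated 3' untranslated region, the called members CHGA, CHGB, GAL and VIP held no such word, nor did SCG2, SCG3 and NPY. SCG5 held 1 match and VGF, which did not pass the test, held 2. Of 10492 genes tested with such a region 28.3% held the word, and of the 1895 such genes that passed as lower 29.2% did. Only uninterrupted seed words were counted, which is narrower than an energy-based prediction. The genes that passed as lower include those with small fold changes. The study instead combined several prediction programs, on the most expressed isoform and for genes beyond its fold threshold, so the shares cannot be compared with its own. The part of miR-4492 in the changes of the members was not tested. The matches are shown with up to 10 bases on either side and the word in capitals.

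SCG5 site (GRCh38, match at chr15:32696990-32696996, plus strand): tgtagttcatCCAGCCCttgggcattg
VGF site 1 (GRCh38, match at chr7:101162779-101162785, minus strand): tgaccgggggCCAGCCCaggagggcgg
VGF site 2 (GRCh38, match at chr7:101162643-101162649, minus strand): gtgtctgtctCCAGCCCttcgggcctc

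Most genes that process granule cargo did not pass the test. Of 19 genes for prohormone processing 13 were tested, of which 3 were lower, 2 were higher and 8 did not pass (edgeR), with a median log2 fold change of -0.16, and none was called. The shares lower and higher were close to those over genes with at least 10 FPKM (20.0% and 20.9%). Some genes of the list lie under 10 FPKM, and over all genes tested the shares were 14.2% and 14.2%. The lower genes were ATP6AP1, an accessory subunit of the proton pump that acidifies granules (27.4 ± 2.65 against 20.6 ± 0.265 FPKM, SD, n = 3), FURIN, a Golgi convertase, with -0.59, and CPD, a carboxypeptidase, with -0.54 on the log2 scale. PCSK7 and the peptidase gene NLN passed as higher by 0.32 and 0.25, but PCSK7 failed under 5 of the 15 alternatives (edgeR, adjusted p = 0.0845 without si-CyCoNP replicate 2 and 0.0518 without si-SCR replicate 2) and NLN under 9 (0.207 and 0.182 without the same libraries, 0.0552 and 0.11 without replicate 1 of si-SCR or of si-CyCoNP). The abundant genes PCSK1N, which encodes the convertase inhibitor proSAAS, and CTSL, a cathepsin, had log2 fold changes of 0.20 and -0.12 that did not pass (edgeR, adjusted p = 0.194 and 0.583). The granule convertases themselves were almost undetected, with 4 counts for PCSK1 and 3 counts for PCSK2 over all 6 libraries. The genes given here and in the paragraphs on release, precursors, receptors, regulators and markers without being called or among the 3 most abundant of their list were picked after their values had been seen.

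Components of the granule membrane and of its release were measured for 37 of 47 genes, of which 13 were lower, 3 higher and 21 did not pass (edgeR), with a median log2 fold change of -0.21. The 8 called genes were all lower. Of all genes tested, 14.2% passed as lower, 14.2% as higher, 2.98% were called lower and 2.28% called higher. Among genes with at least 10 FPKM these shares were 20.0%, 20.9%, 2.05% and 1.59%. CYB561, the granule membrane protein that passes electrons into the lumen, had 248, 249 and 223 FPKM in si-SCR and 108, 124 and 112 FPKM in si-CyCoNP, without overlap, which is -1.14 on the log2 scale (edgeR, adjusted p = 3.20e-11). SLC18A1, the vesicular monoamine transporter of chromaffin cells, stood at -1.12, the granule-forming factor ICA1 at -1.23, and the calcium sensors SYT1 and SYT9 at -1.08 and -1.22 on the log2 scale. The other called genes were SYT11 (-1.01), RAB27B, a GTPase of granule docking (-1.10), and HID1 (-1.06). HID1, at 1.00 against 0.509 FPKM, did not pass without si-CyCoNP replicate 1 (edgeR, adjusted p = 0.11) or by DESeq2 (adjusted p = 0.0567). It also failed on the log2 FPKM scales (limma, adjusted p = 0.258 and 0.191) and fell below the filter without si-SCR replicate 1. SYT1, SYT11 and RAB27B passed but were not called on either log2 FPKM scale, and likewise SYT9 on log2(FPKM + 1). Without si-SCR replicate 1, SYT1 (-0.97), SYT11 (-0.93) and RAB27B (-0.88) passed the test but were not called, and SYT11 was likewise at -0.94 with library totals alone, at -0.99 without si-SCR replicate 2 and at -0.93 without si-CyCoNP replicate 3, and SYT9 at -0.98 without si-CyCoNP replicate 1. ANXA2, an annexin of the secretory site, passed at -0.22 (edgeR, adjusted p = 0.0375), but failed with library totals alone (0.144) and when any 1 of the libraries other than si-SCR replicate 3 was left out (0.0501 to 0.176). The higher genes were PTPRN, a transmembrane protein of granules (0.72, edgeR, adjusted p = 2.12e-07), VPS53 (0.69) and SLC18A2, the second monoamine transporter (0.60).

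Among 61 other peptide precursors 52 did not reach the filter and 30 of these had no count. Of the 9 tested, 3 were lower and 1 higher (edgeR), with a median log2 fold change of -0.26. Over all genes tested 14.2% were lower and 14.2% higher. CRH, the corticotropin-releasing hormone gene, had 101, 230.5 and 200.3 FPKM in si-SCR and 26.9, 43.9 and 35.95 FPKM in si-CyCoNP. The groups lay apart although si-SCR replicate 1 was far below the other controls, and the log2 fold change of -2.39 (SE 0.19, edgeR, adjusted p = 2.76e-10) was larger than that of any member. ADCYAP1, which encodes the VIP-related peptide PACAP, was lower at -0.91 (edgeR, adjusted p = 5.51e-08) and NMB at -0.74 (edgeR, adjusted p = 0.0435). NMB failed under 7 of the 15 alternatives, among them the fits without si-SCR replicate 1 (0.19), si-SCR replicate 2 (0.0577), si-CyCoNP replicate 1 (0.185) or si-CyCoNP replicate 2 (0.0816). CALCB was higher by 1.87 at 0.389 ± 0.106 against 1.52 ± 0.856 FPKM (SD, n = 3; edgeR, adjusted p = 0.00292), with counts of 8, 4 and 8 against 40, 9 and 31. By limma on log2 FPKM the difference in CALCB failed (adjusted p = 0.14 and 0.117) and was not tested under the default filter of edgeR. CARTPT had 14.6 ± 10.1 against 19.0 ± 5.64 FPKM and did not pass (log2 fold change 0.33), though without si-SCR replicate 2 it passed as higher (0.91; edgeR, adjusted p = 0.0144).

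**Figure D4:**
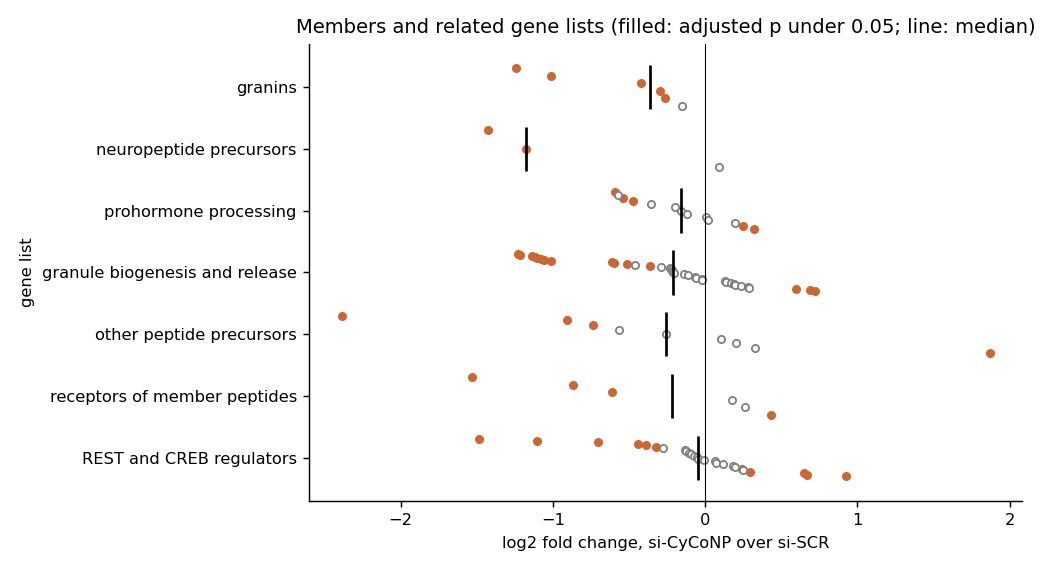
Log2 fold change of si-CyCoNP over si-SCR for the tested members (upper 2 rows) and the genes of related lists, 1 point a gene, filled where the adjusted p was under 0.05 and open otherwise, with a line at each list's median. All points of the processing list lie within 0.6 of 0, and the 8 called genes of the biogenesis and release list are all lower.

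Receptors for the members' peptides were mostly too low to test, with 6 of 16 above the filter, 3 lower and 1 higher (edgeR). The shares over all genes tested were 14.2% lower and 14.2% higher. NPY2R, a receptor of neuropeptide Y, was lower at -1.53 (8.93 ± 2.95 against 3.21 ± 0.784 FPKM, SD, n = 3; edgeR, adjusted p = 3.79e-06). ADCYAP1R1, the PACAP receptor, was lower at -0.87 and the opioid receptor OPRM1 at -0.61, whereas OPRD1 was higher by 0.43 (edgeR, adjusted p = 0.00736; 0.102 without si-CyCoNP replicate 2). None of OPRD1, OPRM1 and ADCYAP1R1 passed on the log2 FPKM scales (limma, adjusted p from 0.0721 to 0.166), and ADCYAP1R1 also failed without si-SCR replicate 1 (-0.51, edgeR, adjusted p = 0.153) or si-CyCoNP replicate 2 (0.0611). C1QBP, which binds a VGF peptide, had 33.4 against 41.9 FPKM and missed the threshold (edgeR, adjusted p = 0.0518), but passed as higher under 5 of the 15 alternatives, among them library totals alone (0.0176) and the fit without si-SCR replicate 3 (0.0064).

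Regulators that are known to act on such genes, the REST corepressor complex and the CREB and AP-1 factors, mostly did not pass. Of 26 tested genes 6 were lower, 5 higher and 15 did not pass (edgeR), with a median log2 fold change of -0.05. The shares lower and higher were close to the 20.0% and 20.9% over genes with at least 10 FPKM. Some genes of this list too lie under 10 FPKM, and the shares over all genes tested were 14.2% and 14.2%. REST itself was low (1.40 FPKM on average over the groups) and did not pass (log2 fold change -0.09, edgeR, adjusted p = 0.792). JUN, an AP-1 factor, was lower at -1.10. The corepressor gene RCOR1 was lower at -0.70 while its relative RCOR2 was higher by 0.92, and HDAC1, USP7, CREM and KDM1A were higher by 0.65, 0.29, 0.67 and 0.24. CREM did not pass on the log2 FPKM scales (limma, adjusted p = 0.073 and 0.0758). KDM1A failed under 6 of the 15 alternatives, with DESeq2 (0.073) and when any 1 library other than si-SCR replicate 1 was left out (edgeR, adjusted p from 0.0556 to 0.2). The abundant JUND and JUNB had -0.13 and 0.18 and did not pass (edgeR, adjusted p = 0.296 and 0.174).

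Markers of neuroblastoma cell states were set beside the members. All 15 adrenergic markers had counts, and of 14 tested 9 were lower and 1 higher (edgeR), against 14.2% lower and 14.2% higher over all genes tested. Among genes with at least 10 FPKM these shares were 20.0% and 20.9%. Of the markers 4 were called lower, against 2.98% of all genes tested and 2.05% of those with at least 10 FPKM. The higher marker was TFAP2B (0.41, edgeR, adjusted p = 0.000408), and TH, ISL1, EYA1 and SIX3 did not pass. The summed levels of the adrenergic markers were 1910 to 2080 FPKM in si-SCR and 1240 to 1280 FPKM in si-CyCoNP. Much of this difference lay in PHOX2A (mean 734 against 352 FPKM) and GATA2 (mean 342 against 172 FPKM). PHOX2A (-1.13) and GATA2 (-1.06) were among those called lower, and DBH, the noradrenaline-forming enzyme of granules, was lower at -0.36. GATA2 passed but was not called with library totals alone or on the log2 FPKM scales (all -0.99), and DBH did not pass on the latter (limma, adjusted p = 0.0666 and 0.0674). Mesenchymal markers summed to 115 to 142 FPKM in si-SCR and 103 to 108 FPKM in si-CyCoNP, and 6 of 15 were tested, with PRRX1, MEOX1 and MEOX2 at 0. Of these SNAI2 (-1.27), FOSL2 (-1.12) and VIM (-0.43) were lower, TWIST1 did not pass (-0.04, turning to 0.03 with library totals alone), and FOSL1 was called higher on counts of 1, 0 and 3 against 5, 14 and 12. FOSL2 was not called without si-SCR replicate 1 (-0.98), and FOSL1 did not pass without si-CyCoNP replicate 2 (edgeR, adjusted p = 0.0558) or on the log2 FPKM scales (0.09 and 0.0811). Of 10 markers of Schwann cells and satellite glia 5 were at 0 in all libraries, SOX10 and FOXD3 among them. The part of these markers in the changes of the members was not tested.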

How the data were processed

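RNA of 6 SK-N-BE libraries was measured, 3 si-SCR and 3 si-CyCoNP, grouped by the sample titles. Per the methods of the study and the labels, the authors made stranded total RNA libraries after ribosomal RNA depletion, trimmed reads with Trimmomatic 0.39 and cutadapt 3.2, removed ribosomal reads with Bowtie2 2.4.2 and aligned with STAR 2.7.7a to GRCh38. The deposited counts are raw counts of uniquely mapping fragments per Ensembl gene, so fragments of near-identical copies are lost. The deposited FPKM values were scaled by the authors for gene length and library total, and both tables implied the same gene length, to within 0.1%, for each of the 22586 genes counted in more than 1 library. All 218 list symbols matched an identifier, and no member shares exons with another listed gene on its strand.

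Genes with a mean of at least 1 FPKM in either group were tested by edgeR 4.0.16 (quasi-likelihood, TMM, R 4.3.3), adjusted by Benjamini-Hochberg over 13966 genes. A call needed, beside an adjusted p under 0.05, a change of more than 1 on the log2 scale. Standard errors and 95% intervals were derived from the test statistic. The study names DESeq2 with the same thresholds, and in 1 legend a likelihood ratio test of edgeR, which was not run here. Alternatives were DESeq2 (version 1.42.0 here), 3 other scalings, 2 other filters, the replicate number as a block, limma 3.58.1 on log2(FPKM + 1) and log2(FPKM + 0.1), and leaving out each library. The fits were tested on simulated data. Positions are from GENCODE on GRCh38, the build of the files. Text named all members, LINC02381, and of each other list the called genes and the 3 most abundant, except some that are not reported here. The members and lists were chosen with earlier results of these data known. Gene counts carry PCR duplicates, so intervals from counting alone understate the error.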

Additional observations from a re-analysis of the deposited data

How the results depend on the processing

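VIP, GAL and CHGA were called lower under all 15 alternatives and CyCoNP under all 15 (log2 fold change from -4.16 to -2.90). CHGB and SCG3 were lower at an adjusted p under 0.05 under all 15, but CHGB was not called on either log2 FPKM scale (-0.94 and -0.95). Over the fits that left out 1 library, 3 to 4 members were called lower, 5 to 7 passed as lower and none as higher, and over all genes 295 to 400 were called higher and 359 to 507 lower. All genes gave 319 calls higher and 416 lower (56.6% lower), 394 and 350 (47.0% lower) with library totals alone, and 207 and 180 by limma on log2(FPKM + 1), a scale that compresses low values. With the replicate number as a block, 330 genes were called higher and 422 lower, 4 members were called lower, and VGF passed as lower (-0.17, edgeR, adjusted p = 0.0426). Deviations of same-numbered libraries correlated at 0.0907, 0.0727 and 0.108, in each case the highest value for that library, which is a hint from the data and not part of the design, so the numbers were not taken as pairs. Signs turned for 4 genes named in the text, in estimates that did not pass. Leaving out 1 library gave -0.13 to 0.26 for NPY and -0.085 to 0.91 for CARTPT (both lowest without si-SCR replicate 1), -0.23 to 0.0016 for CTSL (highest without si-CyCoNP replicate 2) and -0.16 to 0.095 for TWIST1 (highest without si-SCR replicate 1). TWIST1 also turned with library totals alone (0.032) and on the log2 FPKM scales (0.0385 and 0.039). The causes were not tested. The depth of 3762009 to 4799407 counted fragments per library limits what can be said of genes under 1 FPKM.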
